A study of Mus musculus with 2 samples.

Results

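The Ah receptor battery is the set of genes switched on by the aryl hydrocarbon receptor, a sensor of aromatic compounds, and it was read here through 7 genes: the receptor Ahr, its partner Arnt, and the targets Cyp1b1, Cyp1a1, Tiparp, Nqo1 and Aldh3a1. The members were all probe sets that the annotation of the Affymetrix MG_U74Av2 array assigns to exactly 1 of these genes, which gave 12 of 12488 probe sets and 7 of 8252 named genes. The genes were picked on the signals of these same 2 arrays, of which those of Cyp1b1 and Tiparp were already known to be higher on fibronectin, so that their ratios are a description and carry no test. The study measured total RNA of 3T3 cells, immortal fibroblasts derived from mouse embryos, on 2 arrays. One sample, called suspension, was cultured unattached in serum-free DMEM. The other, called fibronectin, was plated in serum-free DMEM on 10 µg/ml fibronectin, the matrix glycoprotein that fibroblasts bind through integrins, and was collected after 30 min. According to the labels, the suspension sample was made to find genes induced by fibronectin. No drug, ligand or genetic change is given for either sample, and the sources used here do not state the time spent unattached. With 1 array per group there is no replicate error and no p-value, so "higher" and "lower" describe these 2 arrays only.

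In the absence of a ligand the Ah receptor is held in the cytoplasm by a chaperone complex. Once activated, it moves to the nucleus, pairs with Arnt and binds a short DNA element, the xenobiotic response element, near its target genes. Many of the targets encode enzymes that oxidise or conjugate foreign compounds, and Tiparp encodes a mono-ADP-ribosyltransferase that feeds back on the receptor. Cyp1b1 is the member of the CYP1 family typical of mesenchymal cells such as fibroblasts. Cyp1a1 is known from several cultured cell types as a gene that can be switched on by loss of attachment without an added ligand.

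Of the target genes, Cyp1b1 was 6.33-fold higher on fibronectin than in suspension and Tiparp at least 4.10-fold, Cyp1a1 was somewhat higher from a level near background, Aldh3a1 was nearly level and Nqo1 was not measurable. No target gene was 2-fold lower on fibronectin, beside 9.25% of all measured genes. Of the targets only Cyp1b1 and Aldh3a1 could have been called lower, because the others lay below the floor defined next in suspension. The signals below are the deposited intensities after each array was scaled to a common trimmed mean. A floor was set at a signal of 490, the mean of the arrays' 40th percentiles. A probe set counted as measured where either array reached it, and a fold against an array below it is a bound, written as at least N-fold. Of the 12 probe sets, 8 were measured. In 4 of these both arrays reached the floor, and in the other 4 the suspension signal lay below it.

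Cyp1b1, which encodes a cytochrome P450 that oxidises steroids and polycyclic hydrocarbons, read 1106 in suspension and 7002 on fibronectin in probe set 99979_at. It moved from percentile 59.2 of all probe sets that are not controls to percentile 94.5. None of the 34 negative control probe sets was brighter than Cyp1b1 on the fibronectin array, whereas 5 of 34 were brighter in suspension. The ratio was 6.33-fold, or 2.66 on the log2 scale, the 5th highest of 6386 measured genes. The other probe set of the gene, 161368_r_at, gave 21.7 and 22.0, below the floor on both arrays and below all 34 negative controls. Its suffix marks a probe set designed under relaxed rules, and it gave no ratio.

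Tiparp (probe set 93985_at), the poly(ADP-ribose) polymerase family member that the Ah receptor induces, read 237 in suspension and 2010 on fibronectin. In suspension it lay below the floor and 24 of 34 negative controls were brighter, and on fibronectin 2 of 34 were brighter. The gene was thus at least 4.10-fold higher on fibronectin, a log2 bound of 2.04. This bound holds against the floor, not against background. Raising the floor to the 60th percentile lowered the bound to 0.93 on the log2 scale, and raising it to the 95th percentile of the negative controls lowered it to 0.29, so that the 2-fold call was lost in both.

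Cyp1a1, the classical marker of Ah receptor activity, had a pair of probe sets that moved the same way at low signals. Probe set 161831_at gave 389 in suspension and 761 on fibronectin, at least 1.55-fold higher. Probe set 94715_at gave 221 and 548, at least 1.12-fold higher. On both probe sets the suspension signal was below the floor. On the fibronectin array 5 and 12 of the 34 negative controls were brighter than these probe sets, against 19 and 24 in suspension. Both values on fibronectin lay below the 95th percentile of the negative controls there, 1873, so Cyp1a1 was close to background on both arrays.

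Aldh3a1, an aldehyde dehydrogenase, had signals of 1306 in suspension and 1502 on fibronectin in probe set 99548_at, a log2 ratio of 0.20. Its probe set 162331_f_at, of a kind that can detect relatives of a gene, gave 254 and 213, below the floor on both arrays. Nqo1, a quinone reductase that is also a target of the factor NRF2, gave 368 and 402 in probe set 94350_f_at and 163 and 326 in 94351_r_at. All 4 of these signals lay below the floor, so no ratio is given for Nqo1.

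The receptor itself was at the limit of measurement. Ahr gave 137 in suspension and 510 on fibronectin in its only probe set, 160495_at, of which just the fibronectin value reached the floor, for a ratio of at least 1.04-fold. On fibronectin 12 of 34 negative controls were brighter. Its size depended on the floor, with a log2 ratio of 1.43 at the 20th percentile and 1.90 with no floor. Arnt, the partner that the receptor needs to bind DNA and that also pairs with hypoxia-inducible factors, was measured by a pair of probe sets that disagreed. In 92529_s_at the signal was 920 in suspension and 1259 on fibronectin, a log2 ratio of 0.45. In 97185_at it was 1504 in suspension and 580 on fibronectin, 2.59-fold lower, and this was the only measured member probe set with a ratio below 0. Against negative controls, 97185_at was above all 34 in suspension and below 11 of them on fibronectin. The probe sets of Arnt differed by 1.83 on the log2 scale. Of 1150 genes with at least 2 measured probe sets, 6.43% differed by as much between their brightest pair, and 41.0% had a brightest pair of opposite sign. The median difference was 0.59. The direction of Arnt was therefore not settled.

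**Figure D1:**
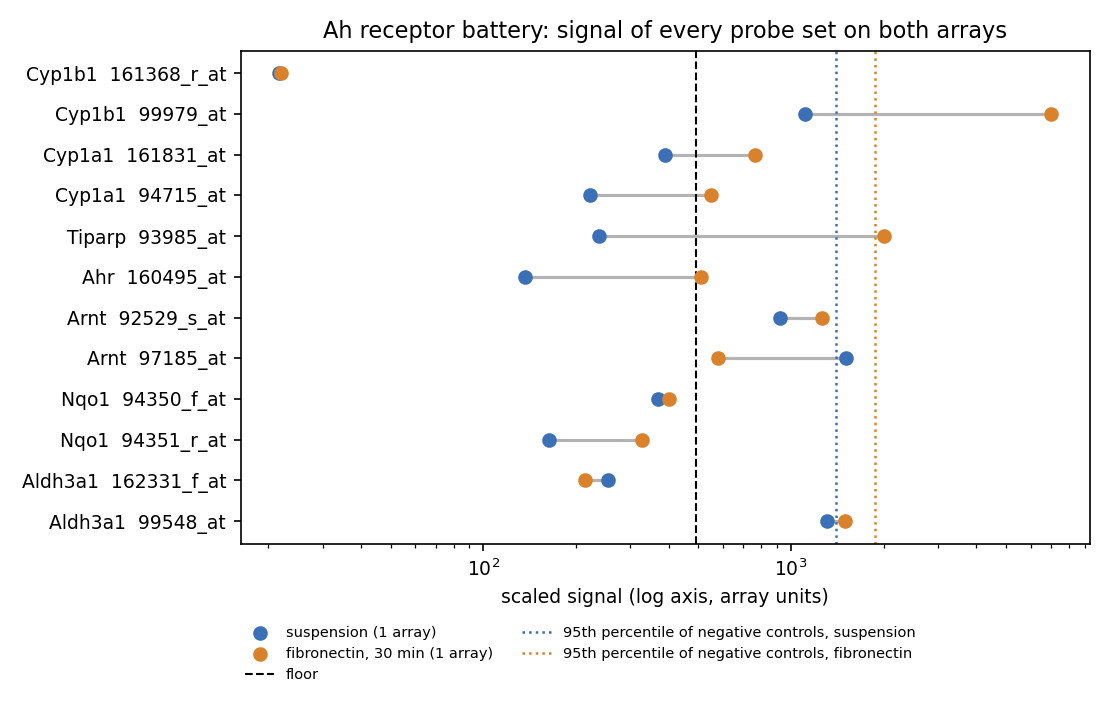
Scaled signal on a log axis for each of the 12 member probe sets, with 1 point for the suspension array and 1 for the fibronectin array. The dashed line is the floor of 490, and the dotted lines are the 95th percentiles of the 34 negative controls, 1403 in suspension and 1873 on fibronectin. Only 99979_at of Cyp1b1 and 93985_at of Tiparp lie above the fibronectin line on that array, while 97185_at of Arnt is the probe set above the suspension line in suspension.

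By gene, with the brightest probe set of each, 6 of the 7 members were measured. All 6 had a ratio above 0, and 2, Cyp1b1 and Tiparp, were at least 2-fold higher on fibronectin, while 0 were at least 2-fold lower. Cyp1a1, Tiparp and Ahr counted as measured only through the fibronectin array, so the floor kept their ratios from falling below 0. The count above 0 and the median of the members therefore carry no evidence of a shared direction. Of all 6386 measured genes, 5.79% passed 2-fold upward and 9.25% downward. At 1.5-fold, 3 members were higher and 0 lower, beside 15.9% and 22.5% of all genes. The median log2 ratio was 0.54 for the 6 members and -0.09 for all genes, of which 45.0% had a ratio above 0. Because the members were picked with these ratios in view, nothing is read from the excess over the background. By probe set, 2 of the 8 measured ones passed 2-fold upward and 1 downward, beside 6.4% and 9.45% of 7753 measured probe sets of 1 gene. Before the floor, 10 of the 12 deposited signals were larger on fibronectin, as were 41.9% of all probe sets of 1 gene.

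**Figure D2:**
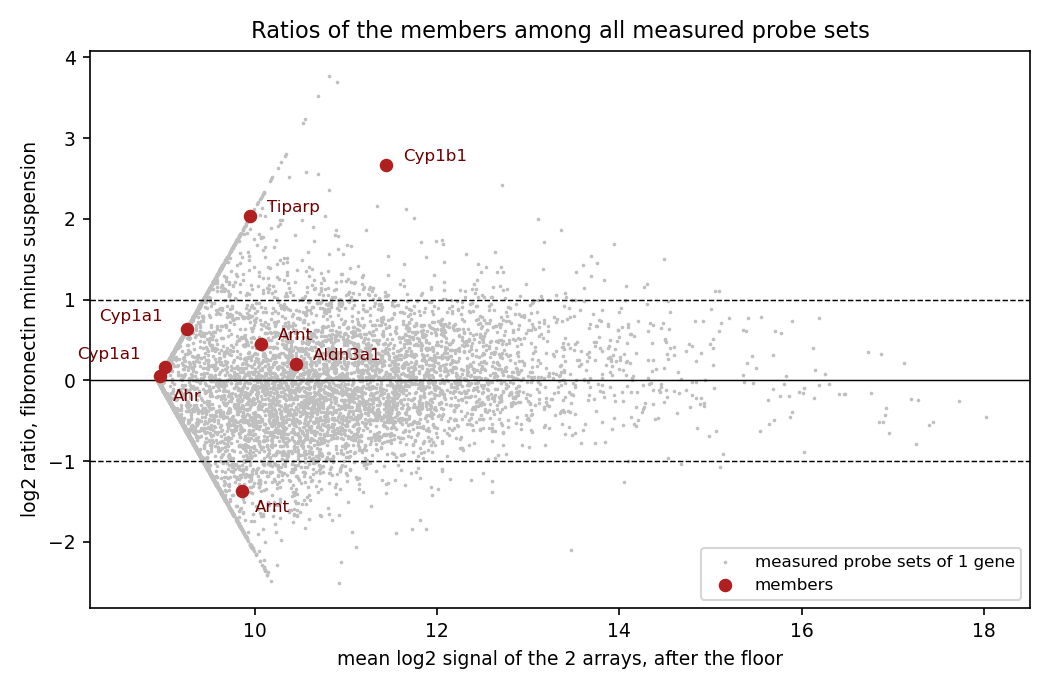
Log2 ratio, fibronectin minus suspension, against the mean log2 signal of both arrays after the floor, for the 7753 measured probe sets of 1 gene in grey and the 8 measured member probe sets in red. Dashed lines mark 2-fold, and the slanted edges hold probe sets with 1 array at the floor. Cyp1b1 (2.66) stands above most genes of its signal, Tiparp (2.04) lies on the floor edge, and the probe sets of Arnt (0.45 and -1.38) lie on opposite sides of 0.

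The pair of genes past 2-fold kept their 2-fold calls with the other ways of scaling the arrays. With each scaling the suspension signal of Tiparp lay below the floor, which kept its ratio from falling below 0. Only Cyp1b1 could therefore have changed direction. Cyp1b1 had log2 ratios of 2.87 with median scaling, 2.70 after quantile normalization and 2.67 after loess, and Tiparp had 2.14, 2.07 and 2.15. Scaling to 9 hybridisation spikes, control transcripts added to the labelled sample, moved the median of all measured genes to -0.51, and Cyp1b1 was then at 2.19 and Tiparp at 1.77. The same scaling put Aldh3a1 at -0.27 and Arnt at -0.02 and left Ahr unmeasured, so that 3 of 5 measured members were above 0. Of all genes past 2-fold, 38.5% were higher on fibronectin, against 59.6% with median scaling, 51.0% after quantile normalization, 51.3% after loess and 8.69% with scaling to the spikes. Cyp1b1 stayed at least 2-fold higher in all 9 alternatives run, with log2 ratios from 2.10 to 2.87, and Tiparp in 7 of 9.

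**Figure D3:**
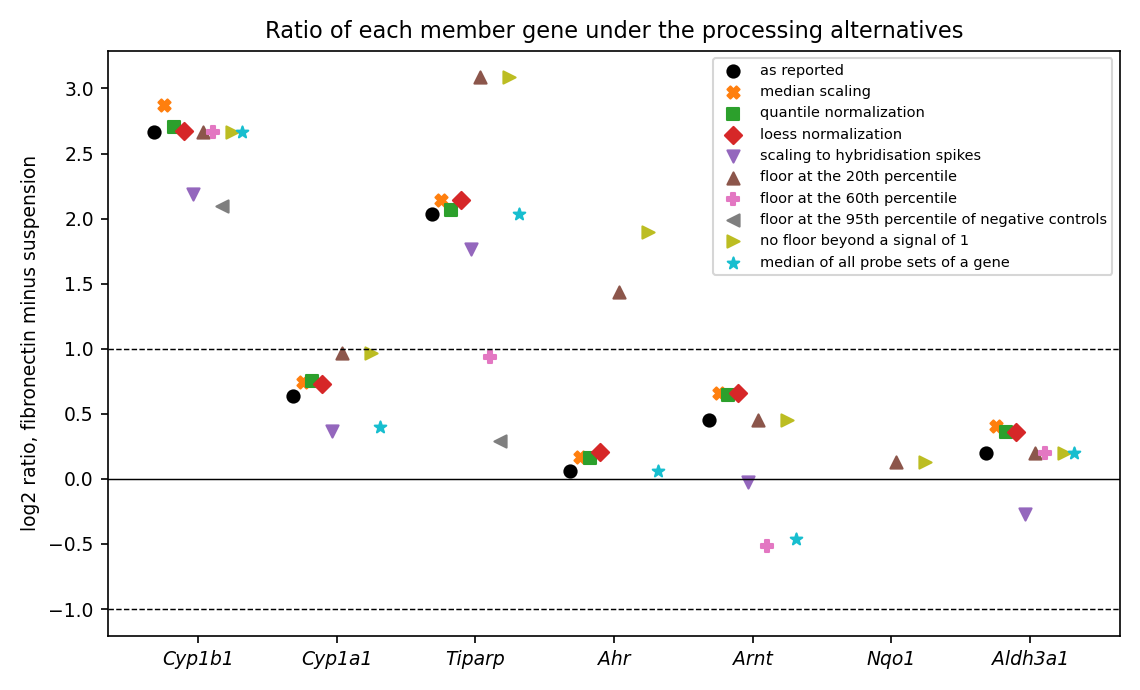
Log2 ratio of each member gene as reported (black circles) and under the 9 processing alternatives, where a missing symbol means that the gene did not reach the floor on either array. The points of Cyp1b1 lie between 2.10 and 2.87, those of Tiparp between 0.29 and 3.09, and those of Arnt on both sides of 0 between -0.52 and 0.66.

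The Ah receptor with Arnt recognises a core of 5 bases, GCGTG, in the xenobiotic response element. RefSeq promoter sequences of the assembly GRCm38.p6 were at hand for 5 of the 7 members (Cyp1b1, Cyp1a1, Tiparp, Arnt and Nqo1), and the 250 bases before the transcription start were searched on both strands. The core occurred once in each of 4, Cyp1b1, Cyp1a1, Tiparp and Arnt, and not in these letters of Nqo1. The windows of the 3 targets with the highest ratios, of which Cyp1a1 was close to background, are shown with the position of the core. They are written 5′ to 3′ along the gene, with the core in capitals (CACGC where it lies on the other strand). They cover chr17:79715062-79715311 on the minus strand, chr9:57697363-57697612 on the plus strand and chr3:65528197-65528446 on the plus strand.
Cyp1b1: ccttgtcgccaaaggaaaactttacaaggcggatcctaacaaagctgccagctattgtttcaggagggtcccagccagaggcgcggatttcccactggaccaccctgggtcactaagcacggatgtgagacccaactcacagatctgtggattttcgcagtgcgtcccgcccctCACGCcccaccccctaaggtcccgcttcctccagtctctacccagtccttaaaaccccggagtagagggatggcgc
Cyp1a1: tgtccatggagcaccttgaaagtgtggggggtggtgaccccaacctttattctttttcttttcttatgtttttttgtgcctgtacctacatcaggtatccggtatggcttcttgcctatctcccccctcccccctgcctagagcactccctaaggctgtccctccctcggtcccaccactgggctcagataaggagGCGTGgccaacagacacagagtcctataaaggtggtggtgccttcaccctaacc
Tiparp: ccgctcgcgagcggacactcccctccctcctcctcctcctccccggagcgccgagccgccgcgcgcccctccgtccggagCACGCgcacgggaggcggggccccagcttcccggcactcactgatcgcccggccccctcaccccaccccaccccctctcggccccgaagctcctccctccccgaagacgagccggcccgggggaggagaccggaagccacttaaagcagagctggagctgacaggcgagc
Counted from the start at +1, the core began at -76 in Cyp1b1, at -54 in Cyp1a1, at -170 in Tiparp and at -29 in Arnt. In Cyp1b1 and Tiparp it was read on the reverse strand, and in Cyp1a1 and Arnt on the forward strand. The window of Tiparp was rich in G and C, at 75.2%, with 28 CpG dinucleotides, against 58.0% and 12 in Cyp1b1 and 53.6% and 3 in Cyp1a1. A match to 5 bases is common. Of 32851 RefSeq windows of this length 28.2% held the core, and of the 5123 measured genes with a window 48.9% held it in at least 1 of their windows. Among genes at least 2-fold higher on fibronectin the share was 50.8% of 303, and among those at least 2-fold lower it was 42.0% of 450. The extended element TNGCGTG, which contains the core, was in 4.10% of all windows and in none of the 5 members' windows. The antioxidant response element core TGACNNNGC, through which NRF2 acts on target genes, was in 10.2% of all windows and, of the 5, only in Arnt. These matches describe the letters of the windows and do not show binding. Bases further upstream were not searched, so an element absent from a window may lie outside it.

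**Figure D4:**
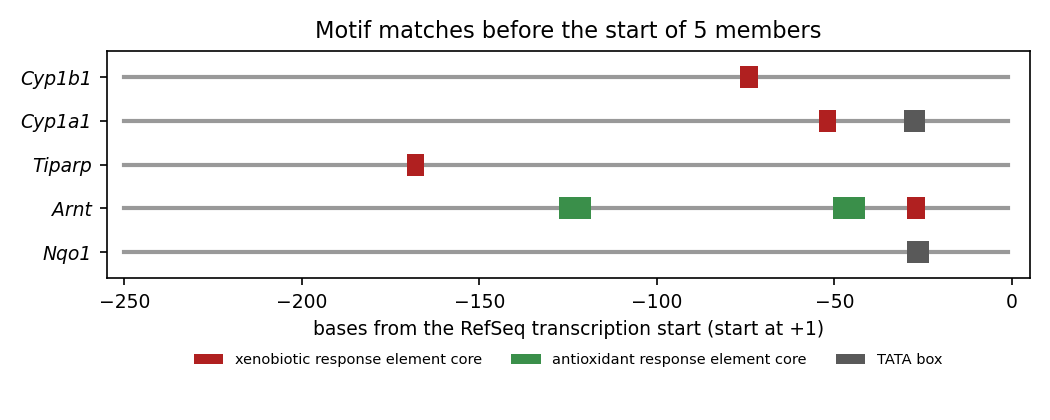
Motif matches in the 250 bases before the RefSeq start of 5 members, with distance from the start in bases on the x axis and 1 line per gene. The xenobiotic response element core (red) lies between -170 and -25 in Cyp1b1, Cyp1a1, Tiparp and Arnt, and the window of Nqo1 holds none. The antioxidant response element core is green, and grey marks TATAAA, the TATA box, found in Cyp1a1 and Nqo1 and in 12.4% of all windows.

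Of 14 listed cofactors and chaperones of the receptor, 10 were on the array and 4 were measured. None of these 4 passed 1.5-fold, beside 15.9% of all genes upward and 22.5% downward. With median scaling 1 was higher and without a floor 2, and for a floor at percentile 20 there were 1 higher and 1 lower. A lower floor admits more genes, and without one all 10 on the array counted, so these counts need not be out of 4. The shares of all genes given here hold for the reported processing only. Hsp90aa1, the chaperone that holds the unliganded receptor, had signals of 14888 in suspension and 18220 on fibronectin, a log2 ratio of 0.29. Rela, an NF-kB subunit that can bind the receptor, had 0.52, the corepressor gene Nrip1 0.24 and the coactivator gene Ncoa1 -0.01. Of 22 further genes reported as Ah receptor targets that were on the array, 14 were measured. Of these, 2 passed 2-fold upward and 1 downward, beside 5.79% and 9.25% of all genes, and at 1.5-fold 2 were higher and 4 lower. The floor changes how many of these genes are measured, and without one all 22 counted. For a floor at percentile 60 the 2-fold counts were 1 and 1, beside 155 and 157 of 4547 genes. At the negative control level they were 0 and 0, beside 96 and 46 of 3320. Without a floor they were 4 and 5, beside 931 and 1540 of 8252. Vegfa, an angiogenic growth factor, was at least 5.62-fold higher on fibronectin, with signals of 388 and 2753. Ptgs2, the inducible cyclooxygenase, was 3.55-fold higher, from 513 to 1818, both values being among those of the negative controls. Socs2, a suppressor of cytokine signalling, was 2.19-fold lower, from 2894 to 1324, and the cytokine gene Il6 at least 1.99-fold lower. Il6 lay below the brightest negative control on both arrays. The median log2 ratio of these 14 was -0.05, beside -0.09 for all genes, and 5 of the 14 had a ratio above 0. Several of these targets also respond to other pathways.

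The counts for the members' own families can be read beside the 5.79% of all measured genes that passed 2-fold upward and the 9.25% that did so downward. Of 36 other cytochrome P450 genes on the array, 15 were measured, of which 1 passed 2-fold upward and 2 downward, with a median log2 ratio of -0.13. Cyp2e1, an ethanol-oxidising P450 of the liver, was at least 3.38-fold higher, from 426 to 1655, and for floors at percentile 60 or at the negative control level 0 of these genes passed 2-fold upward. Cyp2a12 was 2.57-fold lower and Cyp2s1 at least 2.45-fold lower, and Cyp2c29 at least 1.97-fold lower, from signals in suspension between 966 and 1432. The signals of these 4 genes lay within the range of the negative controls on both arrays. Ahr and Arnt are basic helix-loop-helix PAS proteins, and the list of this family also took in the PAS proteins of the Per genes. Of its 17 genes on the array 10 were measured, and 1 passed 2-fold upward and 1 downward, both of them Per genes. The clock genes Per3 and Per1 went opposite ways, Per3 5.17-fold lower, from 2585 to 500, and Per1 2.44-fold higher, from 519 to 1269. Npas1 and Sim1, PAS factors of neurons, were at least 1.92-fold and 1.68-fold lower, from 939 and 821. The signals of Per1, Npas1 and Sim1 lay below the brightest negative control on both arrays. Of the relatives of Tiparp, 2 of 4 poly(ADP-ribose) polymerase genes on the array were measured. Tnks2, a tankyrase, was 2.37-fold higher, from 832 to 1971, and Parp2, which acts in DNA repair, at least 1.07-fold higher. Tnks2 and Parp2 also lay below the brightest negative control on both arrays. Of the relatives of Aldh3a1, 8 of 9 aldehyde dehydrogenase genes were measured and 0 passed 2-fold. Aldh18a1, of proline synthesis, was 1.61-fold higher and Aldh1a7 at least 1.58-fold lower, with signals again below the brightest negative control on both arrays. Aldh2, the mitochondrial enzyme, had 0.51 in its brightest probe set and 0.67 and -0.45 in others.

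Genes that NRF2 controls, as it does Nqo1, mostly reached the floor on both arrays. All 25 on the array were measured, with 3 past 2-fold upward and 1 downward, beside 5.79% and 9.25% of all measured genes. Their median log2 ratio was 0.17, beside -0.09 for all genes. With scaling to the spikes 1 passed 2-fold upward and 4 downward, beside 134 and 1408 of 6366 genes. Hmox1, the haem oxygenase, was 2.82-fold higher, from 13709 in suspension to 38703 on fibronectin. The drug exporter gene Abcc1 was 2.27-fold higher, from 660 to 1501, and Gstm2, a glutathione transferase, 2.11-fold higher in its brightest probe set, with -0.66 in another. Slc7a11, the cystine importer, was at least 2.44-fold lower, from 1195 in suspension. The signals of Abcc1 and Slc7a11 lay below the brightest negative control on both arrays.

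**Figure D5:**
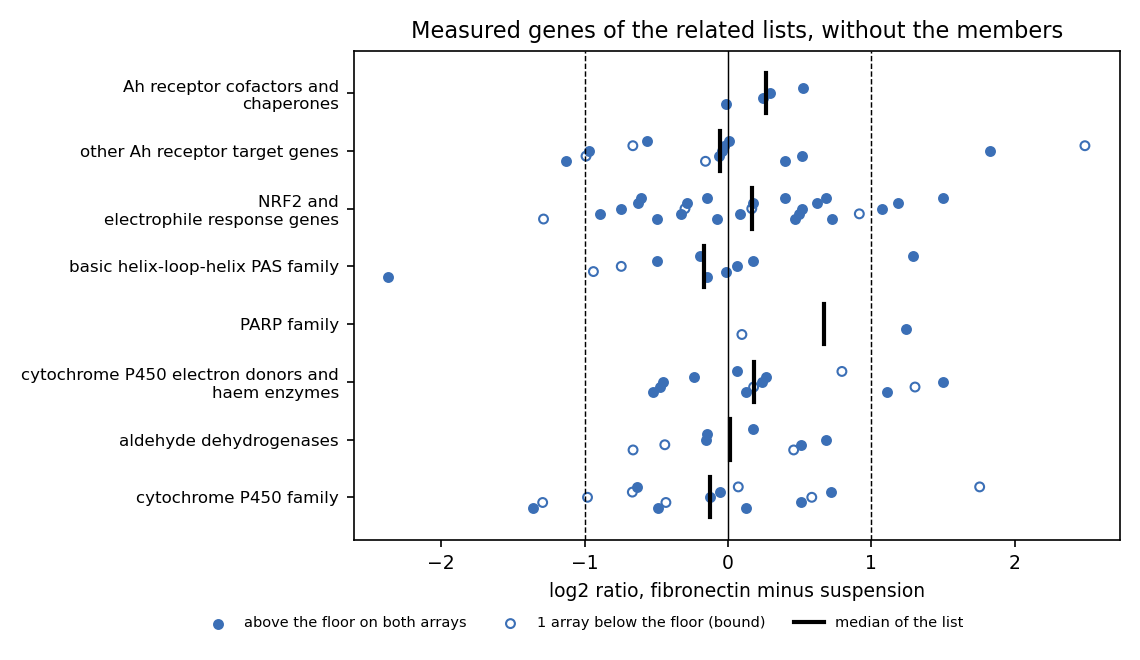
Log2 ratios, fibronectin minus suspension, of the measured genes of 8 related lists, the members left out. Filled points were above the floor on both arrays, open points are bounds with 1 array below it, and black bars are list medians, which run from -0.17 for the basic helix-loop-helix PAS family to 0.67 for the 2 poly(ADP-ribose) polymerases. In most lists the points lie on both sides of 0.

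By signals on both arrays, after the floor, the probe sets nearest to Cyp1b1 among 7753 were those of Tmem43, a membrane protein of the nuclear envelope (1228 and 5479, distance 0.38 on the log2 scale), the disulfide isomerase gene Pdia6 (1549 and 6730, distance 0.49) and the matrix proteoglycan gene Fmod (1713 and 6926, distance 0.63). Nearest to Tiparp were Erp44, a chaperone of the secretory pathway (249 and 2016), the class I histocompatibility gene H2-D4, whose probe set may detect relatives (290 and 2050), and the transcription factor gene Klf13 (466 and 2067). As the suspension signals of Tiparp and of these 3 genes all lay below the floor, they are alike only in the fibronectin value. For Cyp1b1 likeness rests on a single pair of values per gene.

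The labelled cell type was checked by its markers. Of 14 fibroblast markers on the array, 12 in suspension and 11 on fibronectin were above the 95th percentile of the negative controls, with summed signals of 209743 and 329273. Pdgfrb and Col5a2 were 3.35-fold and 2.91-fold higher on fibronectin. Vim was 2.07-fold lower, from 1421 to 686, with signals below the brightest negative control on both arrays. Of 6 hepatocyte markers, 0 passed that percentile on either array, and of 8 epithelial markers 2 passed it in suspension and 0 on fibronectin. Of 7 macrophage markers it was passed by 2 and 1, and of 6 endothelial markers by 1 on each array, and their summed signals were between 3699 and 8757. The fibroblast sum was thus higher on the array on which Cyp1b1 was higher, and its part in that difference was not tested. In bulk RNA, fewer cells of a type and less RNA per cell cannot be told apart. The arrays also differed in chip lot, operator, fluidics module and scan day, which cannot be told apart from the groups.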

How the data were processed

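Total RNA of 2 samples was hybridised to 1 MG_U74Av2 array each. The deposited values are intensities on a linear scale, 1 per probe set. MAS5 produced them, per the submitters' processing notes, and the sources used here give neither its version nor its scaling target. The other deposited files list chip, fluidics and scanner settings, other values than expression, per the file headers. Of 32 such settings 4 differed between the arrays.

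With Python 3.11.15, pandas 2.3.3 and statsmodels 0.14.6, each array was scaled by its 2% trimmed mean (1489 and 1486) over 12422 probe sets that are not controls. Signals below the mean of the arrays' 40th percentiles were raised to it, and log2 ratios were taken. Genes were named from the platform annotation: 10855 probe sets had 1 symbol, 396 several and 1237 were not listed. By gene ID 10839 matched RefSeq and 0 symbols changed. The brightest probe set stood for a gene. Negative controls were 34 probe sets: antisense, and bacterial and yeast transcripts not added as hybridisation spikes.

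The groups came from the sample titles. No test was possible with a single array in each group, and the number of arrays limits the precision. The spread between the brightest pair of probe sets of a gene, on these same 2 arrays, gave an SD of 0.69 for 1 log2 ratio. It covers disagreement between probe sets and not the error between samples or arrays. The members and lists were chosen with earlier results of these data known. From each list, up to 4 measured genes with the largest ratios were named, and for Cyp1b1 and Tiparp the 3 nearest probe sets. The calculation was tested on simulated data. The 9 alternatives were 4 scalings, 4 floors and the median over a gene's probe sets.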

Additional observations from a re-analysis of the deposited data

How the results depend on the processing

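Cyp1b1 kept its 2-fold call in all 9 alternatives, although at the negative control level its suspension signal lay below the floor. Tiparp changed sign in none. Its suspension signal reached the floor only at percentile 20 and without a floor, and elsewhere its ratio could not fall below 0. Tiparp moved with the floor, since its suspension signal lay below it. Its log2 ratio was 3.09 for a floor at percentile 20 and also without one, 0.93 for percentile 60 and 0.29 for the 95th percentile of negative controls. The number of members at least 2-fold higher was then 1 at percentile 60 and 1 at the negative control level, and 3 at percentile 20 or without a floor, where Ahr was the third. By gene, the number of members at least 2-fold lower was 0 in all 9, and those measured only through the fibronectin array could not be lower. The gene value of Arnt stayed below 2-fold. It was -0.52 for a floor at percentile 60, where 97185_at became the brightest probe set, and -0.46 as the median of its probe sets. At the reported floor, 97185_at alone was more than 2-fold lower with each scaling. Its log2 ratio was -1.38 as reported and ran from -1.15 with loess to -1.82 with the spikes, while 92529_s_at stayed between -0.02 and 0.66. Past 2-fold, 370 of all 6386 measured genes were higher and 591 lower, against 596 and 404 with median scaling and 134 and 1408 with scaling to the spikes. These counts were 817 and 1177 of 7674 genes for a floor at percentile 20, and 155 and 157 of 4547 at percentile 60. At the negative control level they were 96 and 46 of 3320, and without a floor 931 and 1540 of 8252. Nqo1, unmeasured otherwise, had 0.13 at percentile 20 and without a floor. Of 288 counts for the related lists, 187 stayed within 1.5 times of the reported count. Most members lie among the negative controls, which limits the size of their ratios. No paired analysis was possible because each group had 1 sample.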

Other observations

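Cytochrome P450 enzymes need haem and an electron donor. Of 16 listed genes that supply or turn over these, 13 were on the array and measured, and 3 passed 2-fold upward on fibronectin and 0 downward, with a median log2 ratio of 0.18 beside -0.09 for all measured genes, of which 5.79% passed 2-fold upward and 9.25% downward. With scaling to the hybridisation spikes 1 of these genes passed 2-fold upward and 0 downward, beside 134 and 1408 of all 6366 measured genes. At 1.5-fold there were then 3 higher and 4 lower, against 4 and 0 with the reported scaling. The genes past 2-fold with the reported scaling were 3. Besides Hmox1, which breaks haem down, these were Uros, an enzyme of haem synthesis, at least 2.47-fold higher, from 438 to 1211, and Pgrmc1, a haem-binding partner of P450 enzymes, 2.16-fold higher, from 3445 to 7427. Ppox, the next to last enzyme of haem synthesis, was at least 1.74-fold higher, from 215 to 850. The signals of Uros and Ppox lay within the range of the negative controls on both arrays. Of the 13 genes, 9 had a log2 ratio above 0. The electron donor genes were not among those past 1.5-fold, with Cyb5a at -0.48, Fdx1 at -0.45 and Cyb5r3 at 0.06. Alas1, of haem synthesis, had -0.24, and the haem oxygenase gene Hmox2 -0.53.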
